A study of Mus musculus with 28 samples.

Results

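Chromatin at 10 early lineage regulators was examined: Gata4, Gata6, Sox17 and Foxa2 of the endoderm, T and Eomes of the mesendoderm, Cdx2 of the trophectoderm, and Pax6, Sox1 and Neurog1 of the neural lineage. The genes were taken by name, and each was given a window of its gene body plus 20 kb on either side (mm9, GENCODE vM1). Of the 10 genes, 9 were found among the 22380 protein-coding genes of the annotation. Sox1 was not listed there under its symbol and was placed by an exact, unique match of its 300-base RefSeq promoter (GRCm38.p6) to mm9. Its window ran 20 kb to either side of its start, inside the gene Gm5607, and it is reported beside the 9 members and not in their counts.

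The chromatin immunoprecipitation (ChIP-seq) study compared HATX mouse embryonic stem cells (mESCs) of mixed genetic background, either WT or Spen KO clone 2, all cultured in serum and LIF. Spen KO is a single clone of a knockout of Spen, an RNA-binding repressor that acts with Xist. There were 2 libraries per genotype for each of H3K4me3, H3K27Ac, H3K9me3 and Oct4, described by the authors as technical replicates, so the spread between them need not include that between cultures. Each histone mark had 1 combined peak list per genotype, which leaves no replicate test of a genotype difference, whereas Oct4 had 1 list per library. No expression was analysed here, and neither was H3K27me3.

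The members encode transcription factors that are switched on when cells leave pluripotency, and their ectopic expression can drive cells into the corresponding lineage. In mESCs such genes typically stay silent in a bivalent state, in which H3K4me3, the mark of active and poised promoters, lies on the same CpG-rich DNA as the Polycomb mark H3K27me3. H3K27Ac marks active promoters and enhancers, H3K9me3 marks heterochromatin, and Oct4 is a core pluripotency factor whose octamer motif is ATGCAAAT. The comparison asked whether these silent genes gained active marks without Spen.

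Sequence was printed where a result turned on it. Promoters of 3 genes are shown first, read 5′ to 3′ on the plus strand of mm9, as the 200 bases before the gene start with each CpG in capitals. Pax6 had no H3K4me3 peak at this place in the Spen KO list. The T peak covered the whole stretch in both lists and was narrower in Spen KO only at its outer edges. The Sox1 peak kept its width.
Pax6, chr2:105508853-105509052, plus strand: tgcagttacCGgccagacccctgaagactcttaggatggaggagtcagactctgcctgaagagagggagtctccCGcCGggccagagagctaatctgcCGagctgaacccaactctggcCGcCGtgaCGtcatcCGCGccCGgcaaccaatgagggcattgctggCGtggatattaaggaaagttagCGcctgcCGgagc
T, chr17:8627088-8627287, plus strand: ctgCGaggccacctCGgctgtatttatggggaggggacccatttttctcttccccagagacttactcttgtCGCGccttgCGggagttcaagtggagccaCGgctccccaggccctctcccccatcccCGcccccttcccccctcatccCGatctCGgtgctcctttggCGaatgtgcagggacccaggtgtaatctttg
Sox1, chr8:12395319-12395518, plus strand: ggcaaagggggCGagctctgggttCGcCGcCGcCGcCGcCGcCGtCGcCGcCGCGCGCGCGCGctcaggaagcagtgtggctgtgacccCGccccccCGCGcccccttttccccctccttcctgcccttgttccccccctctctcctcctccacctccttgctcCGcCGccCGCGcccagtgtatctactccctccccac
The Pax6 sequence held 13 CpGs, that of T held 10 and that of Sox1 held 23. These 3 promoters are examples, and a link between CpG number and the change in H3K4me3 was not tested. A further 3 sequences come from Oct4 peaks, with any octamer in capitals. The first, the 250 bases before the Neurog1 start, lay in the site listed in all 4 Oct4 libraries, the second is a Pax6 intron listed in 3 libraries, and the last is a peak before the Cdx2 start listed in WT replicate 2 alone.
Neurog1, chr13:56353525-56353774, minus strand: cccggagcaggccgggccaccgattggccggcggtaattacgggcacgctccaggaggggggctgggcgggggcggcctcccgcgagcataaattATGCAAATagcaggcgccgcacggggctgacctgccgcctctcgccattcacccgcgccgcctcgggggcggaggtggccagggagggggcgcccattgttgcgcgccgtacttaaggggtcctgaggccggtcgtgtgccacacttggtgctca
Pax6, chr2:105517902-105518103, plus strand: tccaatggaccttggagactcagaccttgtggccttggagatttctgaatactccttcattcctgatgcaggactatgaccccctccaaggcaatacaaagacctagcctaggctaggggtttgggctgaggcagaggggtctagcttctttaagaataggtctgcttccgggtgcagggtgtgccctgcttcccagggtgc
Cdx2, chr5:148118916-148119060, minus strand: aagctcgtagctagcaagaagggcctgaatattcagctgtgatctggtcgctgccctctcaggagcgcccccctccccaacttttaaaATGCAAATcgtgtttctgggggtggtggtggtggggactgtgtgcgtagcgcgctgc
The octamer, searched on both strands, occurred once in the Neurog1 stretch and once in the Cdx2 stretch, and was not in the Pax6 stretch.

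No gain of listed active marks was seen at the members in Spen KO mESCs. H3K4me3 lay within 1000 bp of an annotated coding start of all 9 members in both genotypes, counting internal starts, and H3K27Ac lay at none of these starts in either genotype. At Gata4 the marked start was an internal one in both lists, and at Pax6 it was internal in Spen KO, where no peak covered the 5′ start. Peaks found in Spen KO alone lay in 0 of 9 windows for H3K4me3, against 12.2% of all gene windows, and in 0 of 9 for H3K27Ac, against 16.4%, so both counts are near the background. The sequence covered by H3K4me3 peaks was smaller in Spen KO in all 9 windows, at 35312 bases in Spen KO against 66919 bases in WT, or 52.8% of WT. The share of WT ranged from 14.3% at Pax6 to 88.9% at Sox17. The log2 ratio over the 9 windows together was -0.92, and -0.65 without Pax6. This was read against a general decrease. The whole Spen KO H3K4me3 list covered fewer bases than the WT list, with a log2 ratio of -0.36, and 87.9% of 17218 genes with H3K4me3 in both lists had fewer covered bases in Spen KO. A smaller size at all 9 members is therefore near the background. A decrease of 1.5-fold or more was seen at 6 of 9 members, against 24.3% of genes, and an increase of that size at 0 of 9, against 1.4%.

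Across the series, the lists held 34823 H3K4me3 peaks in WT and 31091 in Spen KO, 13922 and 11932 for H3K27Ac, 53745 and 70268 for H3K9me3, and 1806 to 4111 for the 4 Oct4 libraries. Sequencing depth is unknown. Pluripotency markers fitted the mESC label, with H3K4me3 at the start of 12 of 12 genes in both genotypes and H3K27Ac at the start of 11 in WT and 10 in Spen KO. The Spen start held H3K4me3 in both lists, 3910 bp wide in WT and 9011 bp wide in Spen KO, which does not check the knockout because a promoter peak can remain over a disrupted gene. The second H3K4me3 library value of Spen KO stood low throughout, as described with the library values.

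**Figure D1:**
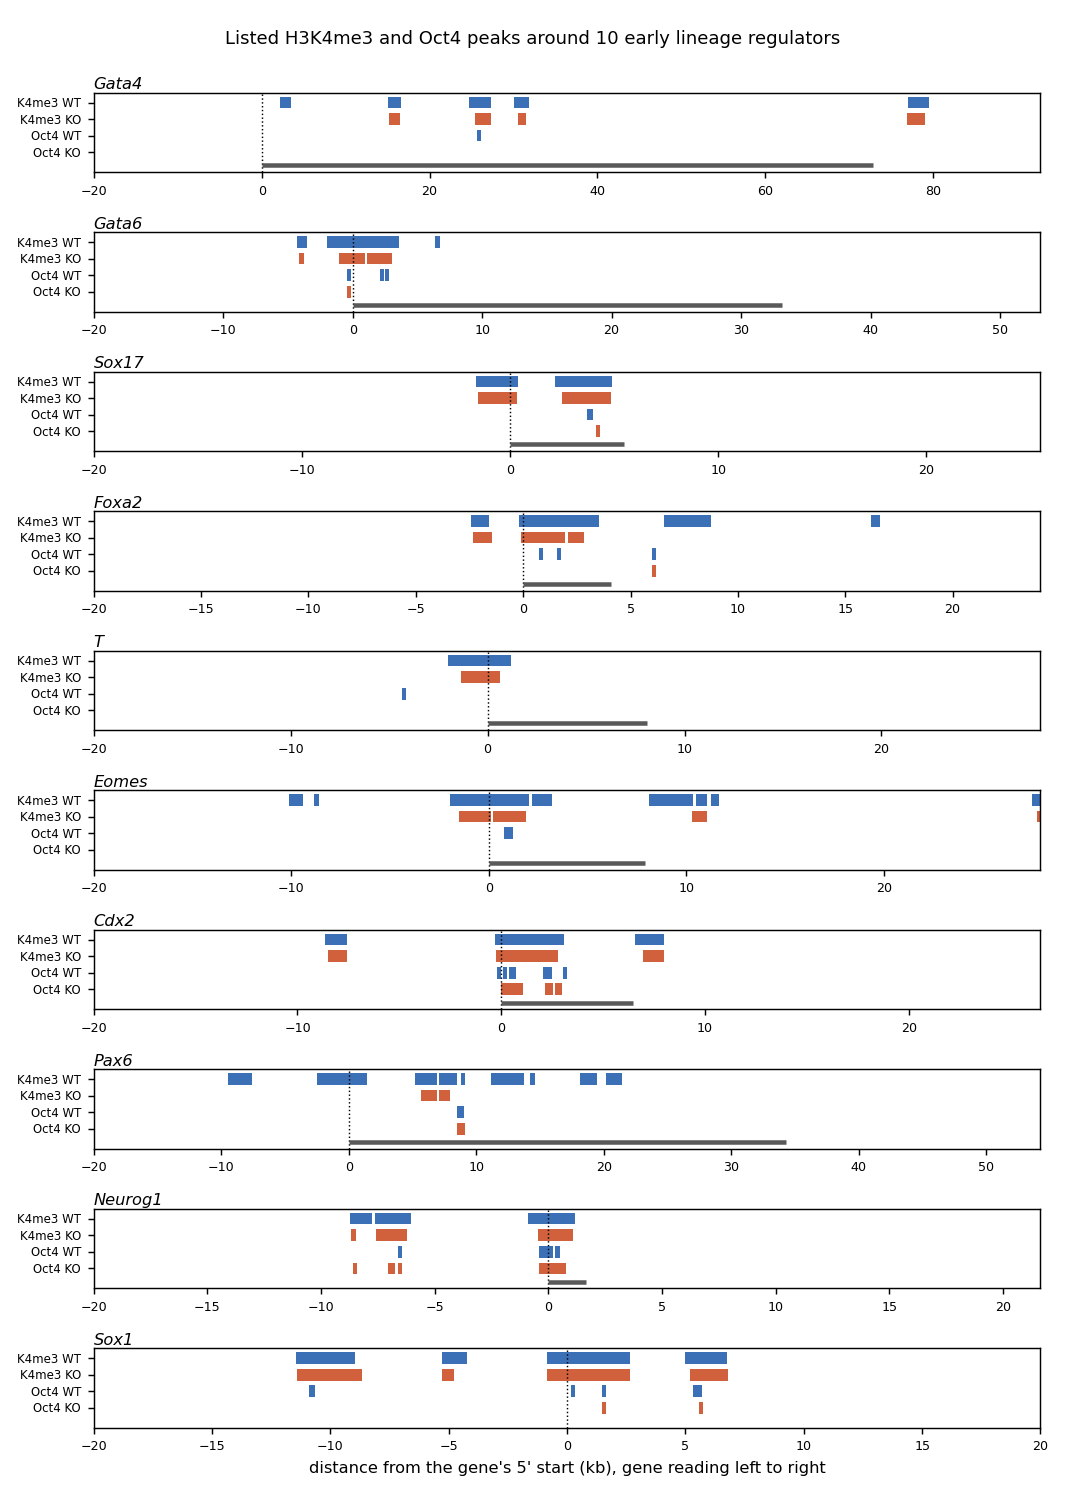
Each row shows 1 gene, with distance from its 5′ start in kb on the x axis and the gene body as a grey bar (none is drawn for Sox1). Bars are listed peaks, WT in blue and Spen KO in orange, for H3K4me3 and for Oct4 with both libraries of a genotype drawn together. The 10 Pax6 H3K4me3 peaks of WT face 2 in Spen KO, and every Spen KO H3K4me3 peak drawn lies over a WT peak.

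At the endoderm genes, listed H3K4me3 peaks were narrower around the starts. Gata4, a zinc-finger factor of primitive endoderm and heart, had 6 peaks and 10102 covered bases in WT and 5 peaks and 6515 bases in Spen KO, a log2 ratio of -0.63. Its only WT-only peak (chr14:63887022-63888320) was a 1299 bp intronic peak 2209 bp inside the gene. The Gata4 window also reached Neil2 and the edge of Fdft1, whose start peaks were listed in both genotypes. Gata6, which directs primitive endoderm, kept 3 peaks in each list, but they covered 6664 bases in WT and 4343 in Spen KO. The 5495 bp WT peak over the Gata6 start (chr18:11050557-11056051) was replaced by Spen KO peaks of 1975 bp and 1953 bp, and a peak of 378 bp over an exon was WT-only.

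Sox17, an HMG-box factor of definitive and primitive endoderm, changed the least of the 9 members. Its 2 peaks covered 4789 bases in WT and 4257 in Spen KO, a log2 ratio of -0.17, and the start peak was 2030 bp wide in WT and 1902 bp in Spen KO. Foxa2, a pioneer factor of endoderm and floor plate, had 4 peaks and 7199 bases in WT and 3 peaks and 3681 bases in Spen KO, a log2 ratio of -0.97. The WT start peak of 3723 bp again lay over separate Spen KO peaks, here of 2037 bp and 767 bp. Peaks of 2199 bp (chr2:147863968-147866166) and 425 bp (chr2:147856100-147856524) downstream of Foxa2 were WT-only.

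Both mesendoderm T-box genes had narrower H3K4me3 start peaks in the Spen KO list. T (Brachyury), which drives the primitive streak and mesoderm, had a single peak over its start in each genotype, 3216 bp wide in WT (chr17:8625257-8628472) and 1939 bp in Spen KO. No other H3K4me3 peak lay in the T window, so the difference was one of width and not of peak number. Eomes, which acts in the trophectoderm and the nascent mesendoderm, had 8 peaks and 9538 bases in WT and 4 peaks and 4267 bases in Spen KO, a log2 ratio of -1.16. Its start peak of 3980 bp in WT was split into Spen KO peaks of 1633 bp and 1703 bp. Of the Eomes peaks, 4 were WT-only, with widths of 263 to 970 bp. Splitting of the WT start peak into more than 1 Spen KO peak occurred at 3 of 9 members (Gata6, Foxa2 and Eomes), against 11.1% of 14189 genes.

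Cdx2, the caudal-type factor that specifies trophectoderm, was among the least changed. It had 3 peaks in both genotypes, which covered 5928 bases in WT and 4997 in Spen KO, a log2 ratio of -0.25, and its start peak was 3414 bp wide in WT and 3046 bp in Spen KO.

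The neural genes differed most among themselves. Pax6, a paired-box factor of the eye and neural tube, had 10 H3K4me3 peaks over 14893 bases in WT and 2 peaks over 2131 bases in Spen KO. Its log2 ratio of -2.81 was at percentile 0.0697 of the 17218 genes, the lowest of the members. The WT-only peaks at Pax6 numbered 8 and included the 3919 bp peak over the 5′ start (chr2:105506539-105510457), whose promoter is printed above. The 2 peaks that remained lay 5684 to 7982 bp inside the gene, at other annotated coding starts. Neurog1, a basic helix-loop-helix factor of sensory neurons, had 3 peaks in both genotypes, over 4590 bases in WT and 3182 in Spen KO, a log2 ratio of -0.53. Sox1, an early neuroectoderm marker, kept 4 peaks, over 8851 bases in WT and 8343 in Spen KO, a log2 ratio of -0.09, at percentile 80.8. The Sox1 start peak measured 3525 bp in WT, against 3514 bp in Spen KO.

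**Figure D2:**
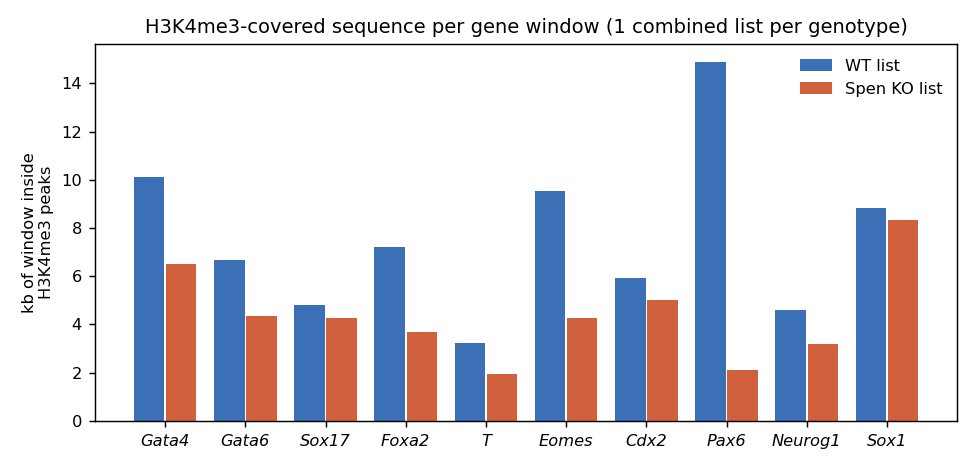
Bars give the kb of each gene window inside listed H3K4me3 peaks (y axis, from 0) in the WT and Spen KO lists, 1 combined list each and therefore without error bars. Every Spen KO bar is lower than its WT bar, from 14893 to 2131 bases at Pax6 down to 8851 to 8343 bases at Sox1.

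WT-only H3K4me3 peaks were found at 5 of 9 members (Gata4, Gata6, Eomes, Foxa2 and Pax6), against 32.4% of all 22380 gene windows. Of 40 WT peaks in these windows 16 were WT-only, whereas none of 26 Spen KO peaks was Spen KO-only. Pax6 alone supplied 8 of the 16, from its 10 WT peaks. When the windows were widened to 50 kb on either side, small Spen KO-only peaks were reached at Gata4 and Cdx2, all more than 50 kb from their 5′ starts. In the whole lists 23.2% of WT peaks were WT-only and 9.49% of Spen KO peaks were Spen KO-only. The WT-only peaks of the members were weak and narrow, with a median list percentile of 17.8 and a median width of 684 bp, and 15 of the 16 ranked in the lower part of the WT list. The 24 WT peaks that were shared had a median percentile of 56.4 and a median width of 2052.5 bp. The exception among the WT-only peaks was the Pax6 start peak, at percentile 51.1. In the whole WT list the median percentile was 16.4 for WT-only peaks and 61.5 for shared peaks. The contrast between WT-only and shared peaks at the members is therefore near the background. Low-ranked peaks lie nearest the calling threshold, and whether reads remained under these peaks in Spen KO was not tested. The WT-covered bases without Spen KO coverage numbered 32041. Of these, 57.2% lay in WT-only peaks and 42.8% at the edges of shared peaks or in the gaps of split ones. Pax6 held 12762 of the 32041 bases, so the larger share in WT-only peaks leaned on that gene. It need not hold for the other members, and the split without Pax6 was not computed.

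Bases covered in WT alone and in both genotypes differed in CpG content. Bases covered in both genotypes held 6.09 CpGs per 100 bases over the 9 windows, and bases covered in WT alone held 3.43. In the whole genome the values were 4.15 and 1.86. The kept bases had more CpGs than the WT-alone bases at each of the 9 members, for example 6.90 against 3.42 at Pax6 and 4.94 against 3.53 at Gata4, so that the H3K4me3 that remained lay on the bases richer in CpG. The whole-genome values had the same order, and the share of all genes with this order was not computed.

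The library values inside the combined lists gave a partial view of the replicate error. The lists do not name the library of each value, so first and second refer to the order in the list. At the start peak, the value that the peak caller assigned to each library was taken in WT and in the highest Spen KO peak over it. Both Spen KO values lay below both WT values at 2 of 9 members, T and Eomes, against 36.8% of 14189 genes. The median log2 ratio of the mean value, Spen KO over WT, was -0.42 at the members and -0.31 over all genes. The 2 WT values had medians of 25.7 and 43.5 at the members, against 41.9 and 42.8 over all genes. Overlap of 2 values with 2 therefore does not measure the size of the difference. At T the WT values were 47.2 and 58.2 and the Spen KO values 27.5 and 10.5. At Eomes they were 61.9 and 58.3 in WT, against 47.5 and 42.4 in Spen KO.

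At the other members the groups overlapped. Gata4, whose start peak lies at an internal start 24652 to 27345 bp inside the gene, had WT values of 23.7 and 52.1 and Spen KO values of 31.6 and 15.6. Foxa2 had WT values of 20.4 and 35.1 and Spen KO values of 26.2 and 11.3. For Pax6, whose highest start peak lies at an internal start, the values were 37.6 and 19.7 in WT, against 19.8 and 8.77 in Spen KO, so the lower WT value lay just under the higher Spen KO value.

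Sox17 had 25.2 and 28.9 in WT, against 26.2 and 18.5 in Spen KO. Cdx2 had 44.9 and 33.8 in WT, against 37.2 and 35.6 in Spen KO. Gata6 (23.7 and 47.5 in WT, 38.6 and 15.2 in Spen KO) and Neurog1 (25.7 and 43.5 in WT, 32.2 and 26.4 in Spen KO) also overlapped. The second Spen KO value was the lowest of the 4 values at 7 of 9 members and at 63.8% of all genes, and its median over all genes was 27.5, against 41.0, 41.9 and 42.8 for the other 3. The first Spen KO value was below both WT values at 2 of 9 members and at 39.6% of all genes. The part of these low second values in the narrower combined peaks was not tested.

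**Figure D3:**
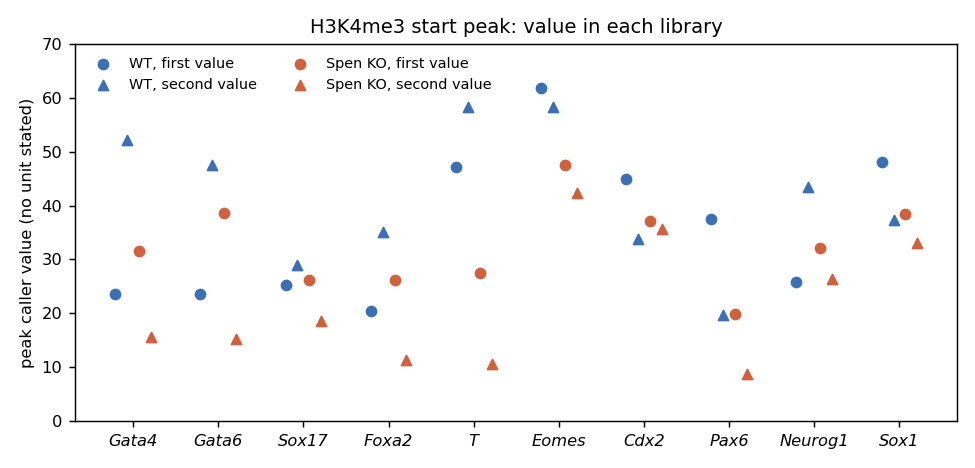
Points give the peak-caller value of the H3K4me3 start peak, as the first and second listed value of each genotype. The y axis is in the caller's own scale, which is not named in the sources used here. The lists do not name the library of each value. The orange triangles, the second Spen KO value, are the lowest at 7 of the 9 members. Both orange points lie under both blue points at T and Eomes only among the 9.

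The same direction was present in a wider list of lineage genes. Of 34 other lineage regulators, 31 had H3K4me3 in both lists. Fewer covered bases in Spen KO were seen at 28 of the 31, against 87.9% of all genes with both, so this count is near the background. A decrease of 1.5-fold or more was seen at 21 of the 31, against 24.3% of all genes with both. The median log2 ratio of the 31 was -0.80, against -0.63 for the 9 members and -0.34 for all genes. The largest losses of bases were at Olig2, a factor of motor neurons and oligodendrocytes, from 13457 to 3138 bases, and at Six3, a forebrain and eye factor, from 12730 to 3306 bases. The largest gains were at Hnf4a, a liver and gut factor, from 1001 to 2081 bases, and at Hhex, an anterior endoderm factor, from 3567 to 3960 bases. At Hnf4a no H3K4me3 or H3K27Ac peak lay within 1000 bp of a coding start in either genotype. The pluripotency genes had a median log2 ratio of -0.17, and 0 of 12 had a decrease of 1.5-fold or more. Genes with H3K4me3 but no H3K27Ac at the start in WT, the combination seen at every member, had a median of -0.38, and 26.9% of them had a decrease of 1.5-fold or more. These lists were described by counts and were not tested.

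**Figure D4:**
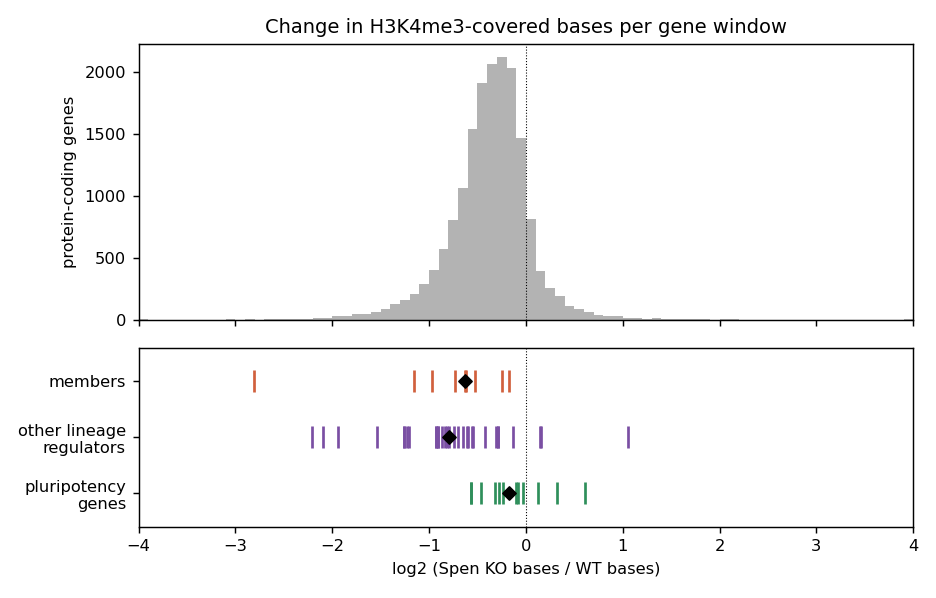
The upper panel is a histogram of the log2 ratio of H3K4me3-covered bases, Spen KO over WT, for the 17218 protein-coding genes with both. The lower panel marks the 9 members, the other lineage regulators and the pluripotency genes on the same axis, with a diamond at each median (-0.63, -0.80 and -0.17).

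The start peak had a median list percentile of 69.8 in WT and 53.1 in Spen KO over the 9 members, and of 79.1 and 76.9 over all genes with a start peak. Its median width was 3216 bp in WT, against 1902 bp in Spen KO at the members, and 2695 bp and 2074 bp over all genes. A percentile is relative to the other peaks of its own list, and the lists differ in length, so these ranks describe each list and are no measure of a change.

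H3K27Ac was close to absent from the members' windows in both genotypes. The Spen KO list held 0 peaks in the 9 windows and the WT list held 1, of which 53 bp reached into the far edge of the Gata4 window (chr14:63796972-63797811), near the start of Fdft1 and 92718 bp from the Gata4 5′ start. That peak had a Spen KO counterpart by overlap, outside the window. As for Spen KO-only peaks, WT-only H3K27Ac peaks lay in 0 of 9 windows, against 20.4% of all windows. Of the 10339 genes with H3K4me3 and no H3K27Ac at the start in WT, 938 had H3K27Ac at the start in Spen KO, which is 9.07%, and none of the 9 members was among them. At that background fewer than 1 of 9 genes would have it, so a count of 0 is near the background. A peak absent from a list is not a level of 0, and depth is unknown.

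H3K9me3 domains reached the windows of 3 of 9 members in WT and 2 of 9 in Spen KO, against 58.9% of all genes in both genotypes, and covered none of the members' coding starts. Gata4 had 2 domains in both genotypes, 1 in an intron (844 bp from an internal coding start in WT) and 1 upstream, over 7000 bases in WT and 9800 in Spen KO. Neurog1 also had 2 domains in both, over 10324 bases in WT and 8524 in Spen KO. A WT-only domain at Gata6 (chr18:11105601-11108800) reached only 33 bp into its window, which makes 1 of 9 members against 14.3% of all windows. Spen KO-only domains lay in 0 of 9 windows, against 20.1%. Around Sox1, 1 domain was Spen KO-only (chr8:12377201-12379800), 15719 bp upstream of the start. Over the 9 windows the domains covered 17357 bases in WT and 18324 in Spen KO, a log2 ratio of 0.08 that had no replicate check. Its direction turned in 3 alternatives, to -0.32 with 5 kb flanks, -0.22 with 50 kb flanks and -2.74 with lists of equal length.

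Oct4 peaks were listed near the members, but the 2 WT libraries differed more from each other than the genotypes did. WT replicate 1 held 1 peak in the 9 windows and WT replicate 2 held 19, whereas Spen KO replicate 1 held 7 and replicate 2 held 12. WT libraries averaged 10.0 ± 12.7 peaks (SD, n = 2) and Spen KO libraries 9.5 ± 3.54 (SD, n = 2). The difference was -0.5, with p = 1.0 by a two-sided exact permutation test, in which the smallest possible p is 0.333. The WT values enclosed both Spen KO values, and the sign rested on single libraries: leaving out WT replicate 2 gave a difference of 8.5, leaving out Spen KO replicate 1 gave 2.0, and leaving out WT replicate 1 gave -9.5. A peak lay in 1, 9, 3 and 6 of the 9 windows in WT replicates 1 and 2 and Spen KO replicates 1 and 2, against 13.3%, 14.2%, 10.6% and 11.6% of all genes. No member had Oct4 in Spen KO libraries alone, against 5.02% of all genes. Gata4, T and Eomes had it in WT libraries alone, 3 of 9 against 13.5%, and in each case 1 peak of WT replicate 2 made the difference.

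**Figure D5:**
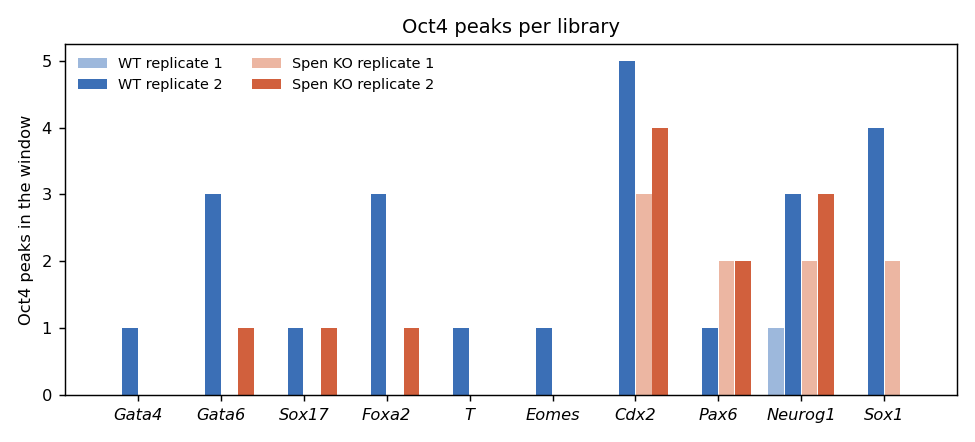
Bars give the number of listed Oct4 peaks per gene window (y axis, from 0) in each of the 4 libraries. WT replicate 2 has a peak at all 10 genes and WT replicate 1 at Neurog1 alone.

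Joined across libraries, the Oct4 peaks of the 9 members formed 22 sites, of which 13 were listed in 1 library, 5 in 2, 3 in 3 and 1 in all 4. WT replicate 2 alone accounted for 10 of the 13. The site in all 4 libraries covered the Neurog1 start (positions -418 to 800 relative to it), and its strongest peak had a fold enrichment over input of 6.87 and 10.2 in WT replicates 1 and 2, and of 9.97 and 10.9 in Spen KO replicates 1 and 2. The groups overlapped. This site held 1 of the 2 octamers found, the other being the one before Cdx2. Within 200 bases around the summit, an octamer lay in 1 of 1 and 2 of 19 member peaks of WT replicates 1 and 2 and in 0 of 7 and 0 of 12 of Spen KO replicates 1 and 2, against 3.22% to 5.72% of the peaks of the 4 lists. The Spen KO peaks at the Neurog1 start held the octamer outside that stretch.

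Cdx2 had the most Oct4 peaks, with 0 and 5 in the WT replicates and 3 and 4 in the Spen KO replicates. A Cdx2 intron site (chr5:148115848-148116223) was listed in both Spen KO libraries and in neither WT library, with fold enrichments of 7.29 and 6.16. It was the only one of 4 Spen KO-only sites to be listed in both. Peaks of WT replicate 2 lay on both sides of it, also in Cdx2 introns. At Pax6, an intron site 8480 to 9096 bp from the start was listed in WT replicate 2 and in both Spen KO libraries, with fold enrichments of 7.32 in WT and of 6.23 and 6.93 at the strongest Spen KO peaks. It overlapped WT H3K4me3 but no Spen KO H3K4me3. The WT H3K4me3 there was a 352 bp peak at list percentile 4.66, near the bottom of its list, and the edge of a 1465 bp peak. Oct4 was thus still listed in Spen KO where a low-ranked H3K4me3 peak was not. In all, 20 of 22 sites overlapped a WT H3K4me3 peak by 1 bp or more, and 18 overlapped a Spen KO one. The same rule was applied per library with H3K4me3 of the same genotype. In WT replicates 1 and 2, 1 of 1 and 17 of 19 member peaks overlapped H3K4me3, against 80.2% and 45.8% of all listed peaks. In Spen KO replicates 1 and 2, 5 of 7 and 9 of 12 did so, against 46.2% and 38.6%.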

How the data were processed

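The series has 28 samples (16 ChIP and 12 input libraries) from HATX mESCs, WT or Spen KO clone 2, grouped here by their labels. Per their methods, the authors aligned reads to mm9 by Bowtie2, took out duplicates by Picard and ran MACS2 against input (q-value threshold 0.01). H3K4me3 and H3K27Ac peaks were further filtered by the authors on an irreproducible discovery rate below 0.05 between both libraries, and the deposited lists hold a score per library, whose MACS2 column is not stated. The mean of both scores was used for ranks. The deposited H3K9me3 lists hold joined 200 bp windows with a score and a p-value. The methods name MACS2 for the histone libraries, which does not account for such windows, so how the authors made these lists is uncertain. The deposited Oct4 lists hold, per library, the fold enrichment over input and −log10 p-values and q-values. DESeq2 was run by the authors on read counts not analysed here. Depth is unknown, and no interval was made. The only counts tested were the Oct4 peak numbers per library, without a correction for depth.

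Lists were compared by overlap in python 3.11.15 (numpy 2.4.6, pandas 2.3.3, pysam 0.24.0), with positions counted from 1. A peak counted as shared if 1 bp or more of it was covered in the opposite genotype, and lay at a start when within 1000 bp of an annotated coding start. Covered bases are the bases of a window inside peaks. Background values are the same counts over all protein-coding genes. Oct4 peak numbers were compared by an exact permutation test over libraries. The overlap and counting code was tested on simulated lists. All 10 members were named, with up to 4 examples from each comparison list (34 other lineage regulators and 12 pluripotency genes, all found, Tfcp2l1 under an older symbol). Members and lists were chosen with earlier results of these data known. Alternatives were another overlap rule, the stronger 50% of each list, windows with 5 or 50 kb flanks, lists of equal length, leaving out peaks at the start of other genes, leaving out each Oct4 library and pairing by replicate number. Values without Pax6 and with Sox1 were chosen after seeing the data.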

Additional observations from a re-analysis of the deposited data

How the results depend on the processing

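Of 42 recomputed counts of members with a peak found in 1 genotype alone, 32 stayed within 1.5 times the reported count. A count of 0 that remained 0 was taken as unchanged. With the stronger 50% of every list, H3K4me3 was found in Spen KO alone at 1 member. This was the Neil2 start peak in the Gata4 window, whose WT counterpart fell below the cutoff. H3K27Ac was found in WT alone at 1, by the peak near Fdft1 at the edge of the Gata4 window, and H3K9me3 in WT alone at 0. H3K4me3 was found in WT alone at 5 members as before, but with T and Neurog1 in place of Gata6 and Eomes. Of these peaks, only that over the Pax6 5′ start was WT-only in the full lists. The others had Spen KO counterparts that fell below the cutoff, so the equal count does not show a stable result. With 50 kb flanks, H3K4me3 was found in Spen KO alone at 2 members and in WT alone at 8, H3K27Ac in WT alone at 1, and H3K9me3 in Spen KO alone at 2 and in WT alone at 4. With 5 kb flanks, H3K9me3 was found in WT alone at 0, and with lists of equal length at 3.

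The log2 ratio of H3K4me3 bases stayed negative in every alternative run, at -1.11 with the stronger 50%, -0.89 with 5 kb flanks, -0.76 with 50 kb flanks, -0.96 without peaks at the start of another gene, -0.86 with lists of equal length, -0.65 without Pax6 and -0.80 with Sox1. That of H3K9me3 reversed, to -0.32 with 5 kb flanks, -0.22 with 50 kb flanks and -2.74 with lists of equal length, and the cause was not tested. No ratio was computed for H3K27Ac, which had no Spen KO bases in the windows. The Oct4 difference reversed to 0.5 with the stronger 50% and to 0.5 with 50 kb flanks, and ranged from -9.5 to 8.5 when 1 library was left out. With the replicate number as a block it was -0.5 (exact sign-flip test, p = 1.0, n = 2 pairs, where the smallest possible p is 0.5). The labels do not say what a number shares, and 2 pairs are too few to check it.

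Each histone mark rested on 1 list per genotype, so no genotype difference in these marks had a replicate test, and peaks near the threshold can drop out of a list without a change in level.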

Other observations

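Some values outside the members were noted after they were seen. Tbx5, a heart and forelimb factor, had 4 H3K4me3 peaks over 5200 bases in WT and 0 in Spen KO. Hnf4a, the lineage regulator with the largest gain of H3K4me3 bases, also had 3 H3K27Ac peaks found in Spen KO alone, none of them at its coding start. Among the pluripotency genes, the H3K27Ac peak over the Klf2 start was 8665 bp wide in WT and 23208 bp in Spen KO, and that at Nanog 2958 bp and 10670 bp. In contrast, Tfcp2l1 had a start peak of 1226 bp in WT and none in Spen KO. Over the windows of all 12 genes, H3K27Ac-covered bases were lower in Spen KO at 6 and higher at 6, with a median log2 ratio of -0.01. With 50 kb flanks, the Spen KO-only H3K4me3 peaks were a 609 bp peak 53171 bp from the Cdx2 start (percentile 18.4) and peaks of 1007 bp and 877 bp more than 100 kb from the Gata4 5′ start (percentiles 4.03 and 9.16). None of these values had a replicate test.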
